A study of Mus musculus with 2 samples.

Results

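The genes described here are 10 members of the cytokine signalling pathway that runs through Janus kinases and STAT proteins, read in single helper T cells. Of these, 5 are feedback genes (Cish, Socs1, Socs2, Socs3 and Pim1) and 5 encode transcription factors (Stat3, Stat4, Stat5a, Stat5b and Stat6). They were taken by name from the 35976 gene rows of the count tables.

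A cytokine that binds its receptor activates Janus kinases, which phosphorylate STAT proteins. The STAT proteins then pair, enter the nucleus and bind DNA at short palindromic sites. CIS (encoded by Cish), SOCS1, SOCS2 and SOCS3 are induced by STAT proteins and dampen the same receptors, so that their transcripts are often read as a trace of recent cytokine signalling. PIM1 is a kinase that STAT proteins also induce and that favours survival and growth. In helper T cells STAT6 is known for responses to IL-4 and IL-13, STAT3 for IL-6 and IL-21, STAT4 for IL-12, and STAT5A and STAT5B for IL-2 and IL-7.

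The cells were OTII T cells, which carry a transgenic T cell receptor for an ovalbumin peptide. The submitters transferred them into recipient mice and sorted live CD4+ Vb5.1-5.2+ cells from the spleen on day 7 after a treatment abbreviated CAS, which the labels do not explain, and a second priming. The control pool came from 2 C57BL/6 recipients. The second pool came from 3 recipients labelled IL13Ra1f/f, CD11cCre/+ (called the deleted pool below), in which the Cre recombinase is driven by the CD11c promoter, mainly active in dendritic cells but not in them alone. The deletion therefore lies in the recipient, and the labels state no deletion in the transferred T cells. Neither the transferred cells' genotype beyond OTII nor a congenic marker is given, and Vb5.1-5.2 also occurs on some T cells of a recipient.

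Each pool filled 4 plates of 92 single cells, 736 cells in all, and full-length cDNA was read by SmartSeq2. The control pool held 573105030 reads in genes and the deleted pool 542650671, with 125197307 to 148025125 per plate. The median cell held 1592794 reads in the control pool and 1499762 in the deleted pool. All 8 CD4 T cell marker genes that have a row reached 5 CPM (counts per 1000000 reads of the plate or pool), with a summed level of 5165 to 5711 over the control plates and 4945 to 5973 over the deleted plates. None of the B cell, plasma cell or megakaryocyte marker genes reached 5 CPM. A gene of myeloid cells, Lyz2, was read at a low level in most cells, at 12.03 CPM in the control pool and 15.3 in the deleted pool. Each pool is 1 sample, so no test between pools was made: a pool, its mice and its plates cannot be told apart. The intervals below for shares of cells cover counting error only. Those for levels treat each read as independent, which amplified reads are not, and so are too narrow even for counting error.

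DNA letters that STAT proteins recognise were searched in RefSeq promoter windows (build GRCm38.p6, 250 bases before to 50 after each annotated start). Windows were found for 9 of the 10 members, 13 windows in all. The searched motifs were TTCNNNGAA and its longer form with 4 bases in the middle, which read the same on both strands. Only 2 members held a match, both feedback genes, and the sites are shown because these genes are read as targets of STAT proteins. Capitals mark the motif.
Cish, chr9:107296654-107296683, plus strand: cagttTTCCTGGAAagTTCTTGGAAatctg
Socs3, chr11:117969501-117969530, minus strand: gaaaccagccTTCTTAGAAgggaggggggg
The Cish window held 2 matches to TTCNNNGAA that were 2 bases apart, and the first began at the annotated start itself. GENCODE M21 places exons of other Cish transcripts upstream of that start. The Socs3 match began 154 bases before its start, in a stretch that overlaps an exon of a longer Socs3 transcript. Among 32851 windows of all genes, 8.30% held TTCNNNGAA, 6.95% held the longer form and 14.6% held either one. A window with 2 or more copies of TTCNNNGAA, as at Cish, made up 0.457% of all windows. No window of Pim1 or of the 5 STAT genes held either motif, which says only that these letters are not in these windows.

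The 250 bases before the Socs1 start held neither STAT motif. They held a repeat of GAAA, the core of the sites that interferon regulatory factors bind, and the stretch is shown in full for that reason. Capitals mark 2 overlapping matches to GAAANNGAAA, a motif that was added after this sequence had been read.
Socs1, chr16:10785537-10785786, minus strand: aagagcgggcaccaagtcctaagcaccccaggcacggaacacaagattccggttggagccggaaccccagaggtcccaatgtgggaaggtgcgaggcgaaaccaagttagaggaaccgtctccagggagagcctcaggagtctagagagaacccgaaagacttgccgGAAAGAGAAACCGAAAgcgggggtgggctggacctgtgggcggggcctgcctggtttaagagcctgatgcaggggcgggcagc
The first match began 83 bases before the start. Searched on both strands, GAAANNGAAA was present in 3.44% of all windows and present 2 or more times in 0.225%. Among the other members, 1 window of Stat4 held it.

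Per length of merged exons, STAT genes took the first 4 places in the control pool, while in the deleted pool Socs3 stood above Stat3. Levels in CPM per kilobase of exon were 91.97 in the control pool and 89.4 in the deleted pool for Stat6, 68.8 and 62.4 for Stat4, 43.2 and 43.7 for Stat5b, and 41.9 and 34.1 for Stat3. Socs3 (19.7 and 36.1), Socs1 (12.5 and 15.9) and Stat5a (11.5 and 15.9) followed. Pim1 (3.21 and 2.83), Cish (1.29 and 4.63) and Socs2 (0.00989 and 0.148) were lowest. The ranges over the 8 plates overlapped between every neighbouring pair in this order except Stat5a, whose plates spanned 7.02 to 17.5, and Pim1, whose plates spanned 1.76 to 5.89.

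Between the pools, 9 of the 10 members were measured at 5 CPM or more in either pool, with Socs2 below that. Of these 1, Cish, was at least 2-fold higher in the deleted pool, beside 5.98% of the 9764 genes measured. No member was at least 2-fold lower, beside 6.71% of all genes. No member had plates of one pool all above those of the other, a pattern that 1.81% of all measured genes showed with higher and 2.6% with lower values in the deleted pool. Stat5a had plates apart without control plate 4 and, together with Cish, without deleted plate 2, and Socs3 without deleted plate 3. The median log2 ratio of deleted over control, computed after adding 1 CPM, was 0.60 over the 4 measured feedback genes, -0.04 over the 5 STAT genes and -0.04 over all measured genes.

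**Figure D1:**
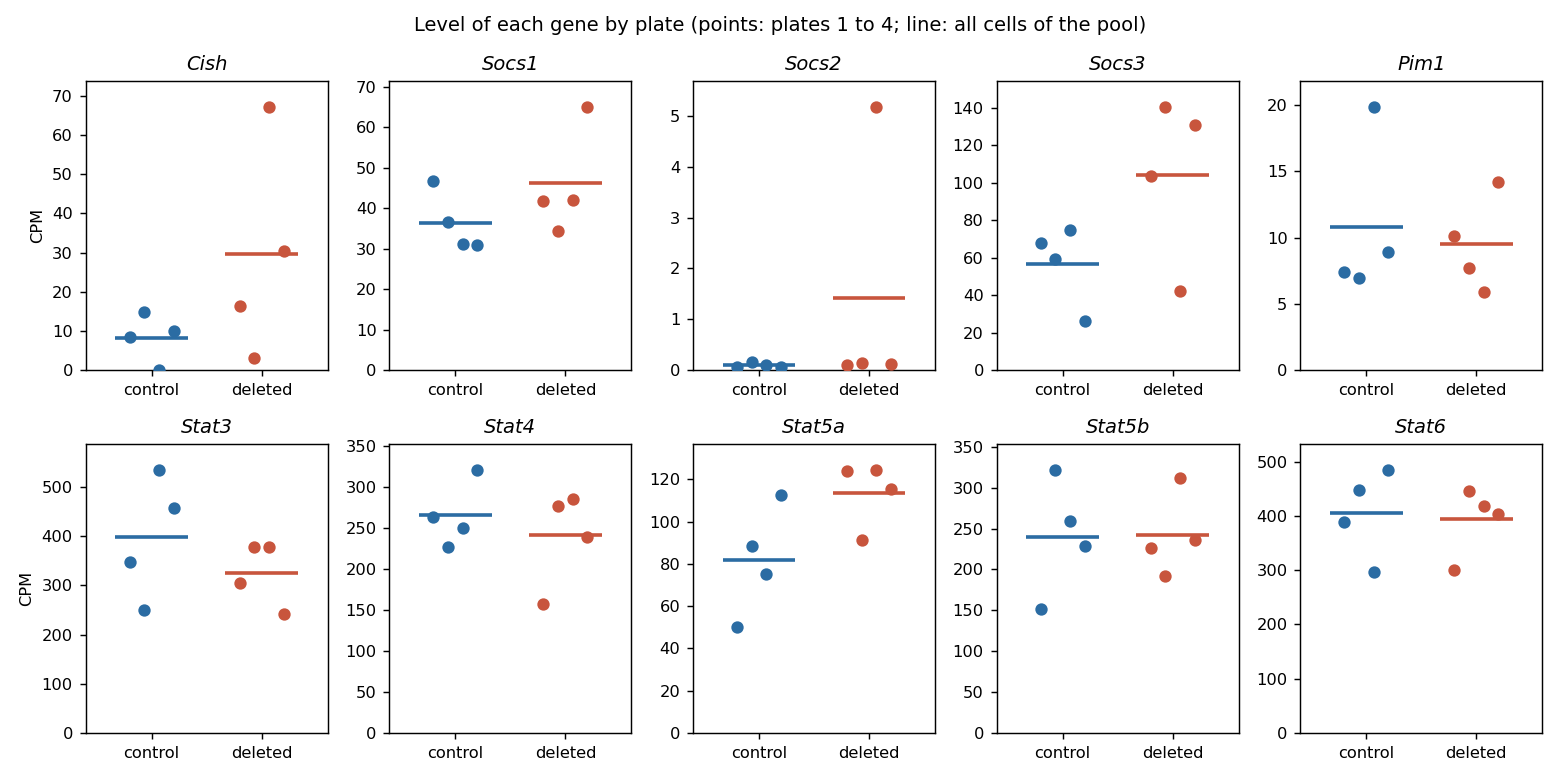
CPM of each gene (vertical axis, from 0, a scale for each panel) on the 4 control and 4 deleted plates (points, plates 1 to 4 from left to right) and in all cells of the pool (line). Deleted plate 3 holds the highest Cish (67.1) and nearly all Socs2 (5.17), and the 2 pools overlap in every panel.

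Cish, whose protein binds activated IL-2 family receptors, was carried by very few cells. The control plates held 8.38, 14.8, 0.0419 and 10.03 CPM and the deleted plates 16.4, 3.17, 67.1 and 30.4. One control plate was close to 0, and a deleted plate lay below 3 of the control plates. Summed over cells, the level was 8.27 (exact Poisson 95% interval 8.03 to 8.50) in the control pool and 29.7 (29.3 to 30.2) in the deleted pool, a log2 ratio of 1.73. A positive cell reached 10 CPM and was also no lower than 5% of the plate's mean, and 5 of 368 control cells (1.36%, exact Clopper-Pearson interval 0.443 to 3.14%) and 11 of 368 deleted cells (2.99%, 1.501 to 5.29%) were positive. These intervals overlap. Those few cells held 99.3% of the control pool's Cish reads and 99.7% of the deleted pool's.

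Within a positive cell Cish was abundant. The 5 control cells held 126, 632, 665, 780 and 807 CPM. The deleted cells ran from 186 to 1795 with a median of 1001, and 6 of the 11 lay above 1000 while none of the control cells did. Deleted plate 3 held 6 of the 11 cells. Without that plate the log2 ratio was 0.96, short of 2-fold, and over each plate left out in turn it ranged from 0.96 to 2.09.

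Socs1, an inhibitor of Janus kinases that limits interferon and common gamma chain cytokine signals, was the member whose share of positive cells differed most between the pools in percentage points. On the control plates 12, 13, 9 and 11 of 92 cells were positive, and on the deleted plates 18, 13, 24 and 24. Only deleted plate 2 was as low as a control plate. As a ratio of shares Cish and Pim1 differed more. The shares were 12.2% (9.06 to 16.02%) in the control pool and 21.5% (17.4 to 26.0%) in the deleted pool. Socs1 was the 1 member whose intervals were apart, beside 0.43% of all measured genes with a higher share in the deleted pool. None was apart with a lower share, beside 0.563% of all genes. The intervals overlapped when control plate 3, deleted plate 3 or deleted plate 4 was left out, and also when 50 CPM were asked of a positive cell (11.7% and 18.5%) or 100 (9.51% and 16.3%).

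The summed Socs1 level differed less than the share of cells. The control plates held 46.8, 36.6, 31.3 and 30.9 CPM and the deleted plates 41.8, 34.4, 42.1 and 65.0, which overlap. Pool levels were 36.4 (35.9 to 36.9) and 46.2 (45.6 to 46.8), a log2 ratio of 0.34. Positive cells held a median of 234 CPM in the control pool and 212 in the deleted pool. The 2 cells above 1000 were both in the control pool, and the highest of them held 11.5% of that pool's Socs1 reads.

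**Figure D2:**
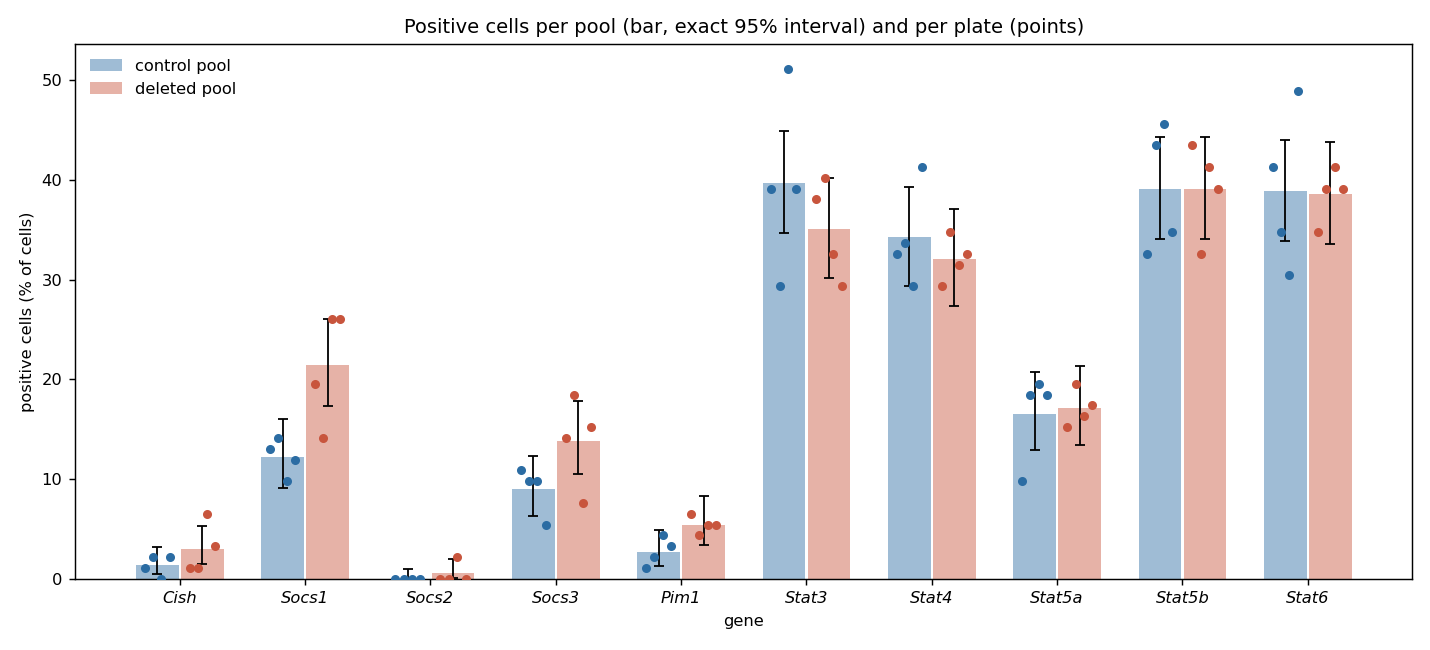
Share of positive cells for each gene in percent of cells, with bars for the pool, exact 95% intervals, and points for the 4 plates. Socs1 (12.2% and 21.5%) is the 1 gene whose intervals do not overlap, and the intervals of the 5 STAT genes overlap between the pools.

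Socs3 dampens receptors that signal through gp130, the IL-6 receptor chain, and so acts on STAT3. The control plates held 67.7, 59.5, 74.9 and 26.3 CPM and the deleted plates 104, 140, 42.5 and 131. Of the deleted plates, 3 lay above every control plate and plate 3 lay below 3 of them. Pool levels were 56.8 (56.2 to 57.5) and 104 (104 to 105), a log2 ratio of 0.87 that ranged from 0.62 to 1.13 over the plates left out in turn. It passed 2-fold without control plate 3 (1.02) or deleted plate 3 (1.13). Positive cells numbered 33 (8.97%, 6.25 to 12.4%) and 51 (13.9%, 10.5 to 17.8%), so the intervals overlap. In positive cells the median was 593 CPM in the control pool and 683 in the deleted pool, and 5 control and 16 deleted cells exceeded 1000.

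Socs2, known for limiting growth hormone signals and induced by STAT5, was almost absent. The control plates held 0.0626, 0.152, 0.0977 and 0.0676 CPM and 3 of the deleted plates 0.104, 0.148 and 0.125. Deleted plate 3 alone reached 5.17, from 2 cells at 468 and 12.9 CPM. No control cell was positive, for which 3 counts allow a share of up to 0.815% and the exact interval one of up to 0.997%. Both Socs2 cells were also positive for Cish, at 701 and 186 CPM.

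Pim1 differed in opposite ways by level and by cells. The control plates held 7.43, 6.96, 19.8 and 8.88 CPM and the deleted plates 10.1, 7.72, 5.91 and 14.2. Pool levels were 10.8 (10.5 to 11.1) and 9.53 (9.27 to 9.79), a log2 ratio of -0.16 that ran from -0.41 to 0.26 over the plates left out in turn, with the 0.26 reached without control plate 3. Positive cells numbered 10 (2.72%, 1.31 to 4.94%) and 20 (5.43%, 3.35 to 8.27%), with overlapping intervals. All 10 control cells held over 100 CPM, with a median of 389. Of the deleted cells 11 of 20 held less than 100, and the median was 75.2. At a minimum of 50 CPM the counts were 10 and 11, and at 100 they were 10 and 9.

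**Figure D3:**
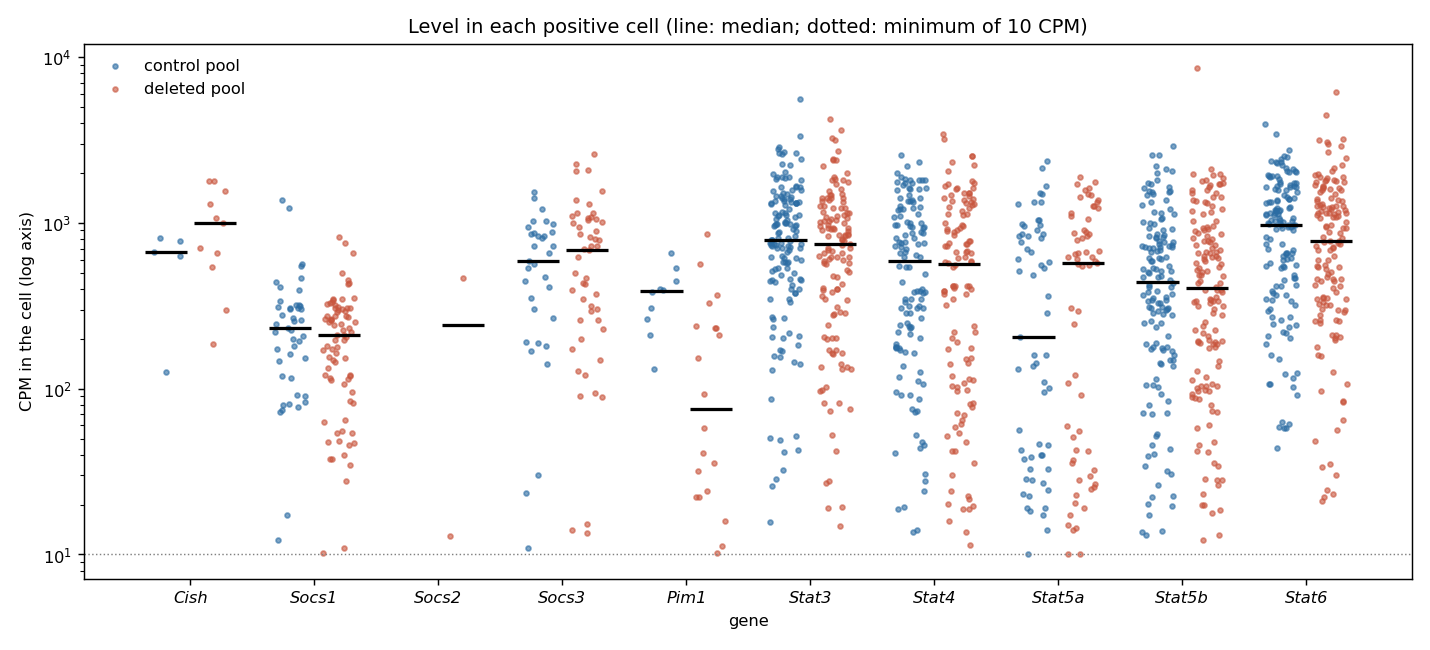
CPM in each positive cell (log axis) for the 10 genes, control cells left and deleted cells right, with the median as a line and the minimum of 10 dotted. The Cish cells lie between 126 and 1795, and 11 of the 20 deleted Pim1 cells lie under 100.

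At 10 CPM all 5 feedback genes, 4 of them measured, had more positive cells in the deleted pool. Socs2, which was not measured, had 0 and 2. Pim1 had 10 and 11 at a minimum of 50 CPM, and 10 and 9 at 100. Over all measured genes 43.3% had more and 50.9% fewer. Counted together, at least 1 feedback gene was positive in 82 control cells (22.3%, 18.1 to 26.9%) and 134 deleted cells (36.4%, 31.5 to 41.6%). The control plates spanned 18.5 to 27.2% and the deleted plates 32.6 to 38.0%, which do not overlap. This joint count was formed after the values of its members had been seen, and it has no background over other gene lists. Leaving out Socs1, 47 control cells (12.8%) and 76 deleted cells (20.7%) remained. Most cells with at least 1 of the 5 feedback genes held a single one: 71 control and 107 deleted cells held 1, 11 and 25 held 2, and 0 and 2 held 3.

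Some marker genes of other cell types were also higher in the deleted pool, and others were lower. At 10 CPM, 60.6% of control and 77.4% of deleted cells counted as positive for Lyz2, with share intervals apart, as for Socs1. Its plates did not overlap either, at 10.5 to 13.9 CPM in the control pool and 14.7 to 16.3 in the deleted pool. S100a8, a myeloid gene below 5 CPM in both pools, also had share intervals apart (20 control and 48 deleted cells). Those of S100a9 overlapped (11 and 24 cells). The Lyz2 level in the median cell was 11.4 and 14.6 CPM, and at 50 CPM 1 control and 5 deleted cells were positive for Lyz2. The part that reads at this low level have in the feedback shares was not tested. Marker genes of natural killer and innate lymphoid cells summed to 19.6 to 39.5 CPM on the control plates and 41.1 to 54.8 on the deleted plates. These sums have no background over other gene lists. Klrb1c was the highest of these genes in the control pool (14.7 CPM, and 18.5 in the deleted pool). Prf1, which encodes perforin, was the highest in the deleted pool (9.96 and 24.6). Cd8b1, the 1 measured CD8 T cell marker, was lower in the deleted pool (26.3 and 9.27 CPM). Of the 8 measured CD4 T cell markers, Thy1 alone had share intervals apart (51.4% and 37.2%), beside 0.563% of all genes with a lower share. Cd2 (78.0% and 79.3%) and Lat (87.2% and 89.4%) were positive in more deleted cells, and the others in fewer with overlapping intervals. At 50 CPM or more, Lyz2, S100a8 or S100a9 marked 2 control and 7 deleted cells. Of the other cells, 82 of 366 control and 131 of 361 deleted cells held a feedback gene. Without the 3 control and 8 deleted Prf1 cells the counts were 82 of 365 and 130 of 360. With so few cells left out these counts could move little, and the part of other cell types was not tested. At 50 CPM for the feedback genes themselves, 78 control cells (21.2%) and 118 deleted cells (32.1%) held at least 1.

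Wells without a cell gave few reads of these genes. The 9 empty wells held 6698 to 12348 reads in all genes, with at most 8 reads of any member (Stat6) and none of Cish or Socs1. Scaled to their few reads, these wells held 315 CPM of Stat6, 303 of Stat3, 198 of Stat4 and 175 of Stat5b. Socs3 stood at 58.3, Stat5a at 35.0, and Socs2 and Pim1 at 11.7 each. The smallest of the 736 cells, on deleted plate 4, held 9905 reads, within the range of empty wells. Among cells with 100000 reads or more, 82 control and 133 deleted cells held a feedback gene. A level of 10 CPM stands for 15.3 reads in the median cell. Median cells of the pools held 1574 and 1540.5 genes at 5 reads or more.

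Stat6, which IL-4 and IL-13 activate, had nearly the same level in both pools. The control plates held 389, 448, 297 and 484 CPM and the deleted plates 300, 447, 417 and 403. The lowest and highest of the 8 plates were both control plates. Pool levels were 405 (403 to 407) and 394 (392 to 395), a log2 ratio of -0.04. Positive cells numbered 143 (38.9%, 33.9 to 44.05%) and 142 (38.6%, 33.6 to 43.8%).

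Stat3, which IL-6 and IL-21 activate, was read at 348, 250, 534 and 457 CPM on the control plates and at 305, 377, 379 and 241 on the deleted plates. The 2 highest values were control plates, but the others intermingled. The log2 ratio was -0.30, from 399 (397 to 401) to 325 (323 to 326) CPM. Positive cells numbered 146 (39.7%, 34.6 to 44.9%) and 129 (35.1%, 30.2 to 40.2%).

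Stat4, which mediates IL-12 responses, lay at 264, 227, 251 and 321 on the control plates and at 157, 277, 286 and 239 on the deleted plates. Deleted plate 1 was the lowest of all. Its pool levels were 267 (265 to 268) and 242 (240 to 243), a log2 ratio of -0.14, with 126 (34.2%, 29.4 to 39.3%) and 118 (32.1%, 27.3 to 37.1%) positive cells.

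Stat5a and Stat5b encode closely related proteins that mediate IL-2 and IL-7 signals. Stat5b was level between the pools, at 239 (238 to 241) and 242 (241 to 243) CPM with 144 positive cells (39.1%, 34.1 to 44.3%) in each. Its control plates held 152, 322, 260 and 228 and its deleted plates 227, 192, 311 and 235. Stat5a was found in fewer cells, 61 (16.6%, 12.9 to 20.8%) and 63 (17.1%, 13.4 to 21.4%). The Stat5a level was 50.1, 88.4, 75.2 and 112 on the control plates and 124, 91.1, 124 and 116 on the deleted plates. Only control plate 4 and deleted plate 2 crossed. The pool levels were 81.7 (81.0 to 82.4) and 114 (113 to 115), a log2 ratio of 0.47 that ranged from 0.30 to 0.67 over the plates left out in turn.

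Stat5a levels were spread widely over positive cells. Of the positive control cells 23 held under 100 CPM, 28 held 100 to 1000 and 10 held more. The deleted pool had 23, 24 and 16. The median of positive cells was 206 in the control pool and 569 in the deleted pool. The numbers under 100 CPM were equal, and the cells above were split differently at 1000. The quartiles of positive cells were closer than the medians, at 38.9 and 36.2 for the lower and 853 and 983 for the upper.

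The 3 genes Stat5b, Stat5a and Stat3 lie next to each other on chromosome 11, within 158864 bases in RefSeq (GRCm38.p6). Stat5a and Stat5b protein-coding transcripts share 14.7% of Stat5a's stretches of 50 bases and 6.31% of those of 100 bases, and 11.1% and 4.87% of Stat5b's. No other pair of the 10 members shared a stretch of 50 bases. How the authors' counting treated reads that fit both genes is not given in the sources used here, so part of the reads of one may stand under the other. The RefSeq models of Stat5a and Stat3 are 1636 bases apart, whereas the longer GENCODE M21 model of Stat3 overlaps Stat5a by 72 bases.

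Feedback genes and STAT genes were seen together in cells about as often as their separate shares give. Over the 25 pairs, 446 cells were counted positive for both (a cell counts once per pair), against 419.5 from the product of the shares within each plate, a ratio of 1.06. The ratio was 1.09 in the control pool and 1.05 in the deleted pool, and 1.05 when the expected number was formed separately among cells with more and with fewer detected genes. Both genes of a pair share the library and depth of each cell. Pearson correlations of log2 values over cells, centred within plate, ran from -0.07 to 0.11 for these pairs. In sparse reads such weak values are no finding.

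At least 1 STAT gene was positive in 324 control cells (88.0%) and 313 deleted cells (85.1%). Among the 736 cells, 99 held none of the 5 STAT genes, 262 held 1, 216 held 2, 116 held 3, 41 held 4 and 2 held all 5. Stat5a and Stat5b were both positive in 60 cells against 48.9 expected, and the part that shared reads have in this was not tested. Stat3 and Stat5a were both positive in 58 against 46.5, and Stat5b and Stat6 in 100 against 110.2.

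**Figure D4:**
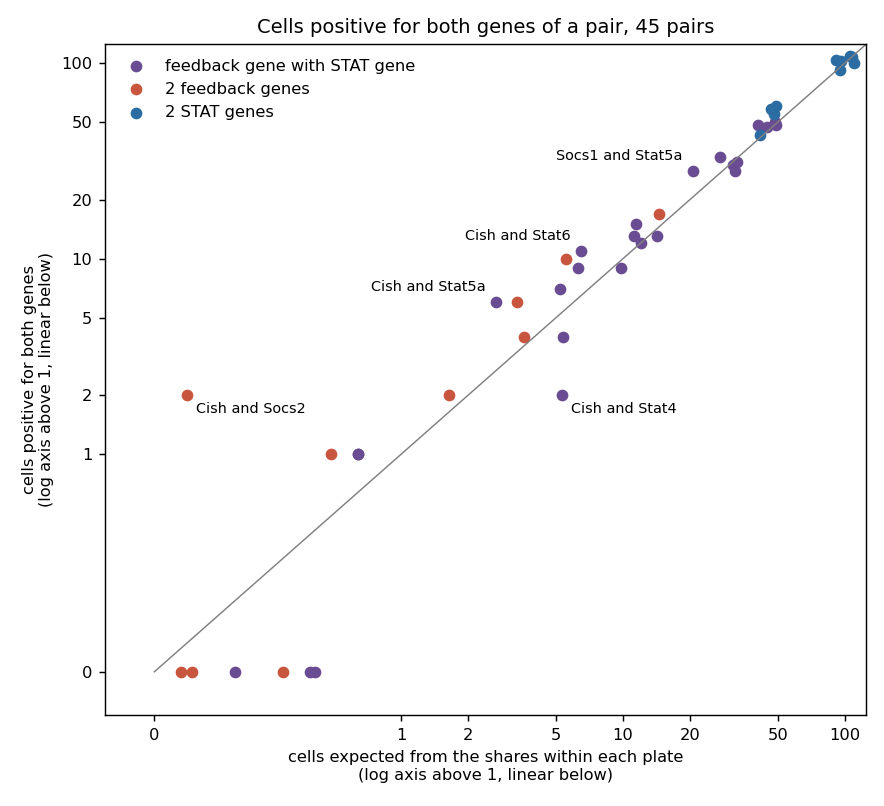
Number of cells positive for both genes of a pair (vertical) against the number expected from the shares within each plate (horizontal), both axes logarithmic above 1 and linear below, for 45 pairs. The line marks equality. Most pairs lie near it, with Cish and Stat6 (11 against 6.48) above and Cish and Stat4 (2 against 5.34) below.

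Leaving aside Socs2, the highest and the lowest of these ratios belonged to Cish, with 16 positive cells. Of these 11 were positive for Stat6 (6.48 expected), 9 for Stat5b (6.30), 6 for Stat5a (2.68), 4 for Stat3 (5.38) and 2 for Stat4 (5.34). Cish was positive in 3.86% of Stat6-positive and 1.11% of Stat6-negative cells. Socs1 and Stat5a were both positive in 28 cells (20.7 expected), and Socs1 and Stat5b in 48 (48.9 expected). Socs3 and Stat3, whose receptors it dampens, were both positive in 30 cells against 31.3 expected, and the highest Socs3 ratio was with Stat4 (33 against 27.5).

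Pairs of feedback genes gave a higher ratio, from far fewer cells. Over the 10 pairs of feedback genes 42 cells were counted against 30.2 expected, a ratio of 1.39, with 1.51 in the control pool and 1.35 in the deleted pool. Socs1 and Pim1 shared 10 cells (5.51 expected), Socs1 and Socs3 shared 17 (14.5), and Cish and Socs1 shared 6 (3.34). These counts are small, and cells of a pool share their source.

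Cells positive for Tnfrsf9, which encodes the activation receptor 4-1BB, had more of some members than the other cells. There were 110 such cells, 46 control and 64 deleted. Cish was positive in 9 of them (8.18%, 3.81 to 14.96%) and in 7 of the other 626 (1.12%, 0.451 to 2.29%). Stat5a was positive in 42 (38.2%, 29.1 to 47.9%) and in 82 of the others (13.1%, 10.6 to 15.997%). Socs1 was positive in 29 (26.4%, 18.4 to 35.6%) and in 95 of the others (15.2%, 12.5 to 18.2%), so the intervals of these 3 genes were apart. The share of all genes with intervals apart between these cells is not given here. Whether the 3 genes stand out from other genes was therefore not tested.

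The same 3 genes had the higher share in Tnfrsf9 cells of each pool. Stat5a was positive in 34.8% of Tnfrsf9 cells and 13.98% of other cells of the control pool, and in 40.6% and 12.2% in the deleted pool. Cish was positive in 6.52% and 0.621% of control cells, and in 9.38% and 1.64% of deleted cells. Socs1 was positive in 17.4% and 11.5% of control cells and in 32.8% and 19.1% of deleted cells. Tnfrsf9 cells held a median of 1750.5 genes at 5 reads or more and the others 1532.5, and the part that this has in the shares was not tested. Stat6 was positive in 48.2% of Tnfrsf9 cells and 37.1% of the others, with overlapping intervals, and its direction differed by pool (37.0% and 39.1% in the control pool, 56.2% and 34.9% in the deleted pool). Stat5b also differed in direction, at 30.4% and 40.4% in the control pool and 46.9% and 37.5% in the deleted pool. Stat4 (33.6% and 33.1%) and Stat3 (39.1% and 37.1%) were closer over both pools. The Socs1 intervals overlapped when control plate 2 or 4, or deleted plate 1, 2 or 3, was left out, and at a minimum of 50 or 100 CPM, while those of Cish and Stat5a stayed apart under each plate left out.

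**Figure D5:**
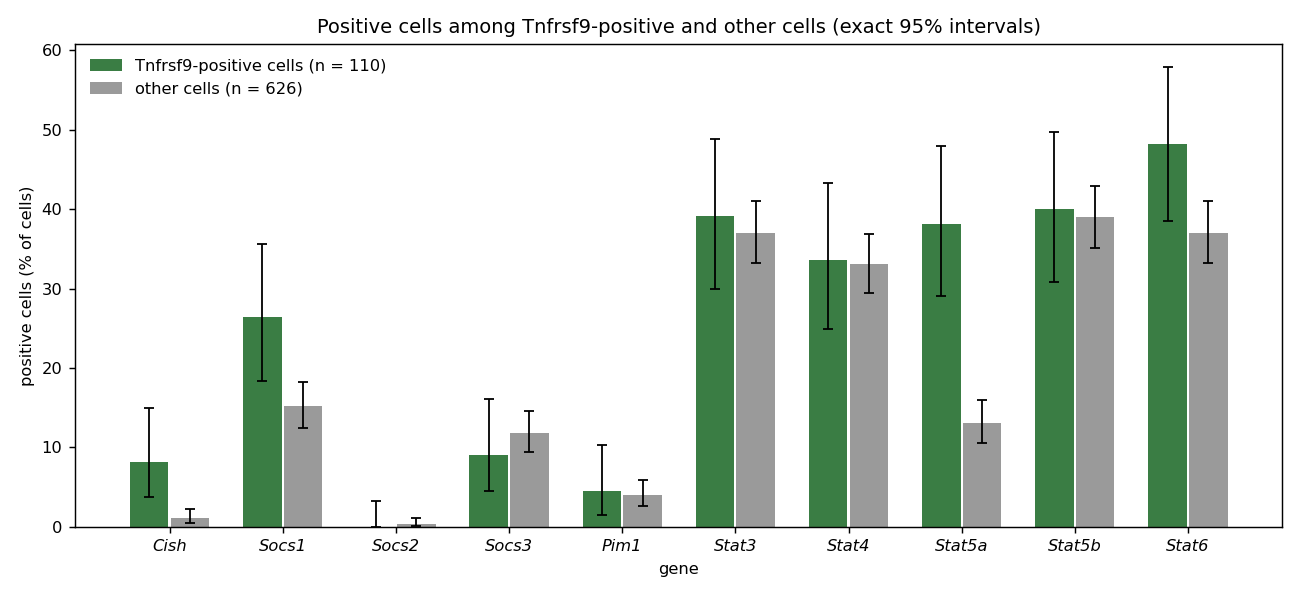
Share of positive cells in percent among 110 Tnfrsf9-positive cells and 626 other cells, with exact 95% intervals. Stat5a (38.2% and 13.1%), Cish (8.18% and 1.12%) and Socs1 (26.4% and 15.2%) have intervals that do not overlap.

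Il2ra, the inducible chain of the IL-2 receptor and a STAT5 target, was positive in only 8 cells. Of these 5 held Stat5a (62.5%, 24.5 to 91.5%), beside 16.3% (13.7 to 19.2%) of the other 728, and 2 held Cish. Cells positive for Cxcr5, the chemokine receptor of follicular helper T cells, numbered 103. Stat4 was positive in 48 of them (46.6%, 36.7 to 56.7%) and in 196 of the other 633 (31.0%, 27.4 to 34.7%), and no other member had intervals apart. The Stat4 shares were 54.3% and 31.4% in the control pool and 40.4% and 30.5% in the deleted pool. Cxcr5 cells also held more genes, with a median of 1814 against 1528. For the Il2ra and Cxcr5 cells, too, the share of all genes with intervals apart is not given here. Among 130 cells positive for both Nr4a1 and Cd69, genes of recent receptor stimulation, no member had intervals apart from the rest.

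No gene followed any member closely over cells. Among 6359 genes positive in at least 5% of cells, the highest Pearson correlation with a member was 0.25, between Stat5a and Tnfrsf9 over 735 cells. None reached 0.3.

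With lists chosen when earlier results of these data were known, the rest of the pathway was read from 63 measured genes. Of these 6 were at least 2-fold higher in the deleted pool and 1 lower, beside 5.98% and 6.71% of all genes. A log2 ratio above 0 was found for 42 and below 0 for 21, where 46.3% of all genes lay above 0, and the median was 0.14 beside -0.04. Plates did not overlap for 3, all higher in the deleted pool, beside 1.81% of all genes higher and 2.6% lower: Socs4, a further SOCS box gene, at 18.5 and 32.6 CPM, Gadd45g, a stress gene that STAT5 induces, at 5.95 and 23.6, and Junb, an AP-1 gene, at 1285 and 2890.

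All 4 Janus kinases were measured and none was 2-fold apart. Jak1 stood at 1122 and 1238 CPM and Jak3, which pairs with the common gamma chain, at 222 and 296. Of 11 other negative regulators, Ptpn11, which encodes the phosphatase SHP-2, was 2-fold higher (22.2 and 47.7). Both other PIM kinases were within 2-fold, Pim2 at 112 and 124 and Pim3 at 44.1 and 80.6. Among the 4 other SOCS genes Socs7 was 2-fold higher (6.16 and 20.1), with plates that overlapped (0.507 to 13.7 and 3.80 to 35.4). Socs4, named above, was positive in 20 cells of each pool. Socs5 (46.1 and 39.1) and Socs6 (35.8 and 27.3) were lower in the deleted pool.

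Of the receptor chains, 17 of 18 measured were within 2-fold. The common gamma chain Il2rg was at 1584 and 1506 CPM, Il2rb at 163 and 184, Il7r at 85.4 and 99.1, Il4ra at 262 and 243, Il21r at 267 and 225, and the gp130 chain Il6st at 197 and 192. Il2ra was at 7.14 and 8.12. Il13ra1, the gene targeted by the Cre recombinase in recipients of the deleted pool, was at 2.35 and 0.197 in the sorted cells. It had 1 positive cell in each pool, which does not check the deletion in dendritic cells. Of 15 cytokine genes only 2 were measured, and Osm, which encodes oncostatin M, was the 1 gene 2-fold lower (43.8 and 16.8, with 21 and 9 positive cells). Among STAT targets other than the members, the median log2 ratio was 0.21 over 10 STAT5 genes, 0.30 over 7 STAT3 genes and 0.13 over 6 STAT6 genes. It was 0.20 for Janus kinases, 0.28 for other SOCS genes, 0.08 for other negative regulators and 0.50 for the 2 other PIM kinases. It was -0.05 for receptor chains, -0.03 for the 2 other STAT genes and -0.37 for the 2 measured cytokines.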

How the data were processed

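SmartSeq2 reads of single sorted T cells were counted per gene by the authors, with featureCounts 2.0.1 on mm10 per the submitters' processing notes, and the deposited values are raw counts per gene and well. The cDNA had 25 amplification cycles per the labels' protocols and carries no molecular identifiers, so reads are not independent molecules. Which aligner, annotation and strand option the authors chose, and what was done with multi-mapping reads, is not given in the sources used here.

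Cell wells (plate and well in the name) were summed per plate and pool and scaled to counts per 1000000 reads (CPM), and log2 ratios were taken after adding 1. A gene was measured at 5 CPM in either pool. A positive cell had 10 CPM and 5% of the gene's plate mean. Counting intervals were exact Poisson or Clopper-Pearson, at 95%, and a count of 0 allows up to 3. The 32 control wells entered no comparison. Groups came from the titles (2 and 3 mice pooled). With 1 sample per pool no test was made, and plates are splits of the same animals.

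Named genes were all members, a few genes per pathway list with the largest log2 ratios at 20 CPM or with a stated role, and genes correlated with a member at 0.3 or more. The members and lists were chosen with earlier results of these data known. Alternatives covered scaling (median of ratios, and TMM from edgeR 4.0.16 in R 4.3.3), pseudocount, cell filters, thinning to 500000 reads, positive-cell minimum and each plate left out. The functions were tested on simulated data. Python 3.11.15, pandas 2.3.3, numpy 2.4.6, scipy 1.17.1 and matplotlib 3.10.9 were used. Sequences came from RefSeq (GRCm38.p6), and exon lengths from GENCODE M21.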

Additional observations from a re-analysis of the deposited data

Results flagged for a closer look

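Within the 4 plates of a pool, 4 of 40 sets of plate values had 1 plate apart from the other 3 by more than Dixon's 95% critical value. Chance gives about 1 in 20 only for independent values with a normal spread. These sets are neither, so that rate is no yardstick here. Deleted plate 3 stood apart for Socs2, in level (5.17 CPM) and in positive cells (2.17%). Both flags rest on the same 2 cells, and the other 3 deleted plates held no positive cell. Control plate 3 stood apart for Pim1 (19.8 CPM), and control plate 1 for the share of Stat5a cells, which was the lowest (9.78%).

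Control wells labelled mBM10 (13 wells) and mBM100 (10 wells), which the labels do not explain and no comparison used, held reads of all 10 members above the highest of the 9 empty wells, at 10 CPM or more. In mBM10 wells the number of such wells was 1 for Cish, 3 for Socs1, 2 for Socs2, 8 for Socs3, 9 each for Pim1, Stat3 and Stat6, 4 each for Stat4 and Stat5a, and 5 for Stat5b. In mBM100 wells it was 2 each for Cish and Socs2, 3 for Socs1, 9 each for Socs3, Stat3, Stat5b and Stat6, and 8 each for Pim1, Stat4 and Stat5a.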

How the results depend on the processing

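In the settings run, the log2 ratios of Cish, Socs1, Socs2, Socs3, Stat3 and Stat5a and the co-expression ratio kept their direction. The log2 ratio of Pim1 turned to 0.26 without control plate 3, and those of Stat4, Stat5b and Stat6, all near 0, changed sign with 1 or more single plates left out. The positive-cell difference of Pim1 turned from 2.72 to -0.27 percentage points at 100 CPM, and those of Stat4, Stat5a and Stat6 changed sign with single plates left out. The number of members at least 2-fold apart was 1 and ranged from 1 to 2 over the plates left out in turn, with Socs3 (1.02) the second without control plate 3. The number with non-overlapping plates was 0 and ranged from 0 to 2, at 2 without deleted plate 2 and 1 without control plate 4 or deleted plate 3. The number whose positive-cell intervals were apart was 1 and ranged from 0 to 1 over the plates left out, and it was 0 at 50 CPM and 0 at 100, the second a minimum chosen after the data had been seen. The difference for at least 1 feedback gene, 14.1 percentage points, ranged from 12.9 to 15.8 over the plates left out. With 1 sample per pool these ranges describe plates, not mice.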
